A study of Mus musculus with 4 samples.

Results

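Integrins are adhesion receptors made of an alpha and a beta chain, and the genes described here are 35: the 26 integrin chains, 3 of their cell surface ligands and 6 of their cytoplasmic partners. They were chosen by name, and each was read on 1 probe set annotated with that symbol alone, the brightest over all arrays where there was more than 1. All 35 were measured, out of 18782 genes in all. The cells were alveolar macrophages, the resident phagocytes of the airspaces, sorted from digested lungs of adult mice on a C57BL/6 background. KO mice were CD11cCre/PPARg fl/fl. WT mice were PPARg fl/fl without Cre, so both genotypes carried the floxed alleles of Pparg, the gene of a lipid-sensing nuclear receptor. The CD11c promoter that drives Cre is that of Itgax, a member of the list, and Cre is therefore made in CD11c-positive cells in general. There were 2 KO arrays and 2 WT arrays, each hybridised with RNA from cells pooled from 2 mice, and a statement over 2 against 2 arrays carries the spread of pools and not of single animals. Both groups were gated as viable, CD45-positive, CD11c-high, autofluorescent and Siglec-F-positive, and the protocol is read here as taking CD11b-high cells from KO mice and CD11b-low cells from WT mice, although its sentence also covers other ages and can be read otherwise. On this reading the CD11b gate and the genotype cannot be told apart for any gene below. The labels describe the KO cells as arrested immature cells.

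Integrin chains pair in fixed combinations. The β2 chain joins 4 alpha chains found on leukocytes and binds ICAM ligands, fibrinogen and complement fragments. The β1 chain joins the chains that bind collagen, laminin, fibronectin and VCAM-1, and the αv chains bind vitronectin, fibronectin and latent TGF-β. Talin and kindlin bind the tail of the beta chain and switch the receptor on, and vinculin, paxillin and the kinase Pyk2 then join the adhesion site and couple it to actin. In tissue macrophages these receptors serve attachment, migration and the uptake of opsonised particles.

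Values are log2 expression, differences are KO minus WT on that scale, and a gene counts as changed when its limma p, adjusted over all 18782 genes, is under 0.05. Of the 35 genes, 7 were higher in KO macrophages, 1 was lower and 27 did not pass the test. That is 22.9% called, against 14.3% of all genes. Of the members 20% were higher, against 7.41% of all genes, and 2.86% were lower, against 6.86%. The median difference was 0.05 over the members and -0.01 over all genes, and the median absolute difference was 0.18 against 0.15. Calls were more frequent among brighter genes: 25% of all genes whose mean over the 4 arrays lay above the median gene level (3.51) were called. Of the 35 members 20 lay above that level, so the share of 14.3% is a slightly low background for them. Of these 20, 40% were called. Both KO arrays lay above both WT arrays for 12 members and below both for 8, while 55.3% of all genes had such groups without overlap. The 7 higher genes were Itgam, Vcl, Itgb7, Itga4, Itgb5, Itgav and Itga5, and the lower gene was Ptk2b. Leaving out KO replicate 1 gave 3 higher genes and 1 lower, and leaving out KO replicate 2 also gave 3 and 1. The counts were 5 higher and 2 lower when WT replicate 1 was left out, and 6 and 4 when WT replicate 2 was.

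**Figure D1:**
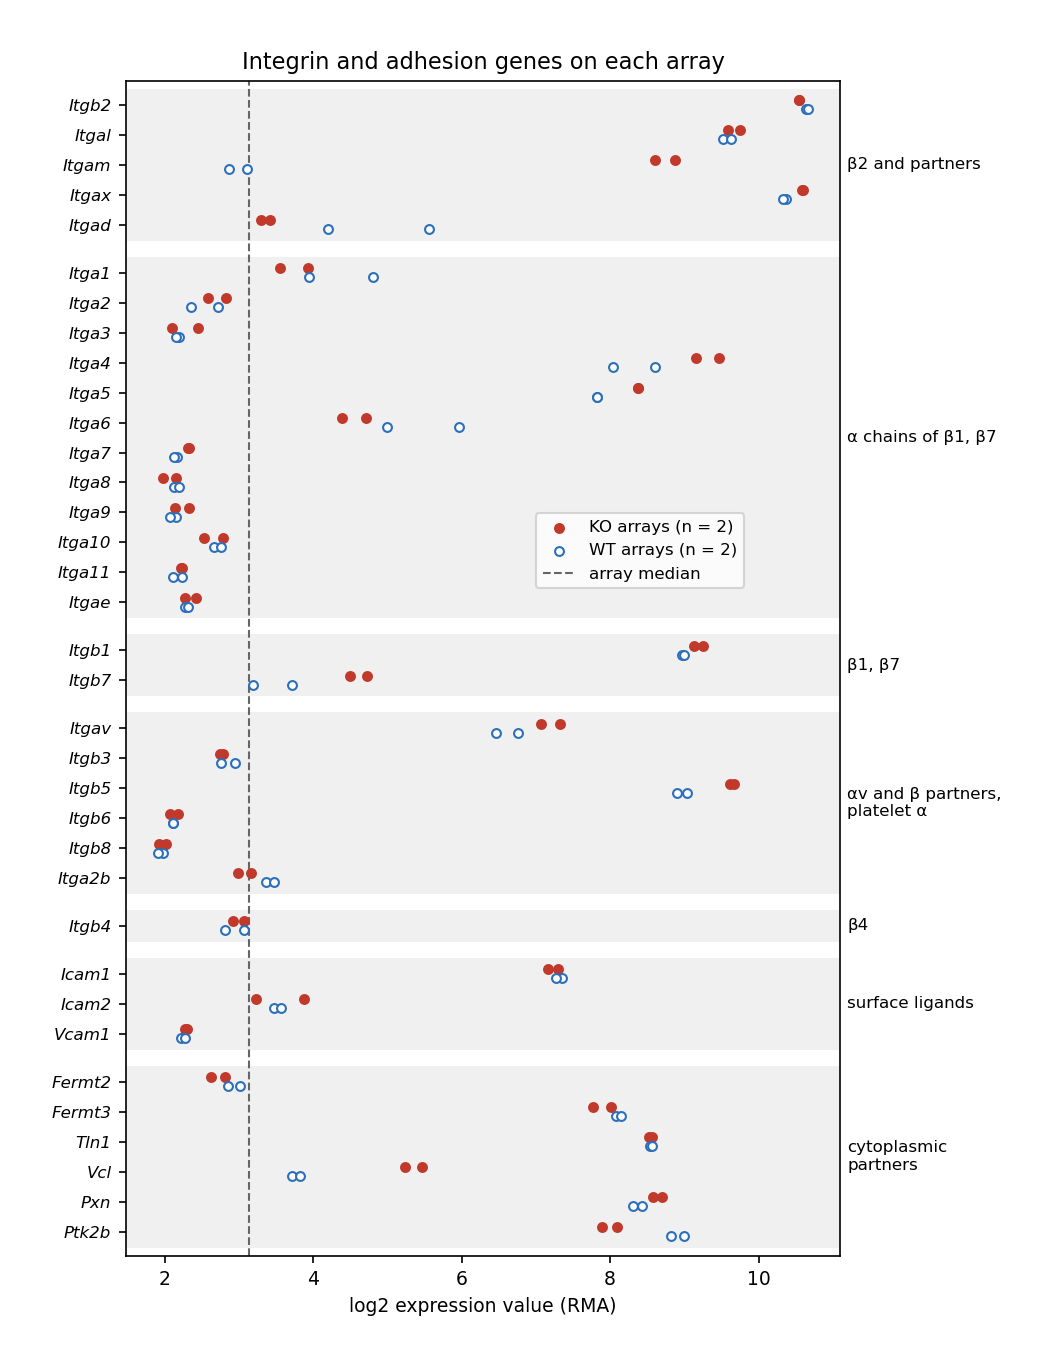
Log2 expression of the 35 genes on each array, grouped by role, with KO arrays as filled red points above WT arrays as open blue points and the array median (3.14) as a dashed line. Itgam lies at 8.61 and 8.87 on the KO arrays against 2.87 and 3.10 on the WT arrays, while Itgal, Tln1 and Icam1 show overlapping groups.

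The targeted gene Pparg read 9.59 and 9.73 in KO, against 9.69 and 9.75 in WT. Whether its probes fall in the deleted part of the gene is unknown, and the level is therefore no check of the labels. Counts of markers above the array median of 3.14 use the group means. All 8 measured alveolar macrophage markers lay above it in both groups, though Marco read 3.04 on KO replicate 1. Siglecf fell to 6.01 and 6.48 in KO, against 9.59 and 9.44 in WT (limma adjusted p = 1.64e-04). Mrc1 was also lower, at 10.13 and 10.16 in KO against 10.6 and 10.57 in WT (limma adjusted p = 0.0276). Both KO arrays lay below both WT arrays for 6 of the 8, while 55.3% of all genes had groups without overlap. Of 5 markers of T, B and NK cells, 1 lay above the array median in KO and 0 in WT. None of the 4 eosinophil and 4 mast cell markers did in either group. Of 7 markers of interstitial macrophages, 4 lay above it in KO and 2 in WT. The summed level of the 7, on the log2 scale, was 9.68 to 10.1 in KO against 5.62 to 5.71 in WT. The sum was led by C1qb, at 9.28 and 8.81 in KO against 2.03 and 3.09 in WT. C1qa, C1qc, Cx3cr1 and Lyve1 were also higher, while Folr2 and Cd163 did not pass the test, with differences of 0.18 and 0.03. The neutrophil list, of which 4 of 5 markers lay above the array median in each group, summed to 10.0 and 10.1 in KO against 8.05 and 8.79 in WT, led by Mmp8. Of its members Mmp8 and S100a8 (5.70 and 5.22 in KO, against 3.65 and 3.43 in WT) were higher, Csf3r was lower by -1.54 on the log2 scale, and Cxcr2 and S100a9 did not pass the test. S100a9 read 2.74 to 3.31 in KO and 2.39 to 2.52 in WT, and Ly6g, which defines neutrophils, was not analysed here. Of 4 monocyte markers, 3 lay above the array median in KO and 2 in WT, and they summed to 10.86 and 10.81 in KO against 10.66 and 10.77 in WT. Ccr2 (7.03 and 6.70 in KO, against 4.49 and 5.58 in WT) and Vcan (3.28 on both KO arrays, against 2.72 and 2.89 in WT) were higher. Nr4a1 and Plac8 did not pass the test, with differences of 0.05 and -0.01. The sum was led by Nr4a1, at 10.74 and 10.71 in KO against 10.63 and 10.72 in WT. The dendritic cell list had 3 of 6 markers above the array median in KO and 2 in WT and summed to 7.02 and 7.78 in KO against 6.46 and 6.66 in WT. Of its members Cd209a was higher (4.48 and 5.055 in KO, against 2.70 and 2.75 in WT). The other 5 did not pass the test, with differences from -0.23 to 1.32. Among them Clec9a, which led the sum in KO, read 5.79 and 6.99 in KO, against 4.56 and 5.58 in WT. The interstitial macrophage, neutrophil, monocyte and dendritic cell lists summed higher on both KO arrays than on both WT arrays. So did the macrophage list, the platelet and megakaryocyte list and the fibroblast and smooth muscle list. The macrophage list summed to 12.87 and 12.89 in KO, against 12.82 and 12.84 in WT. Of its members Csf1r was higher, with a difference of 0.84, while Fcgr1 and Mertk were lower, with differences of -0.66 and -0.48. Its other 3 members did not pass the test, nor did any of the 5 fibroblast and smooth muscle markers. The platelet and megakaryocyte list summed to 5.42 and 5.20 in KO, against 5.08 and 5.03 in WT. The alveolar macrophage list summed lower, at 12.9 on both KO arrays against 13.2 on both WT arrays. The part of these lists in the integrin results was not tested. In pools of sorted cells, more cells of a type and more RNA per cell cannot be told apart.

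The β2 integrins are the leukocyte integrins, and in these macrophages a single chain of the family passed the test. A second, Itgad, fell just short of the threshold (limma adjusted p = 0.0565). Itgam encodes αM, which forms Mac-1 (CD11b/CD18, the receptor for the complement fragment iC3b). It read 8.87 and 8.61 in KO, against 3.10 and 2.87 in WT. Both WT arrays lay below the array median and both KO arrays far above it. The difference was 5.76 ± 0.14 (SE; 95% interval 5.43 to 6.09; limma adjusted p = 1.25e-05), a 54.1-fold higher value in KO. Since values at the bottom of the scale are compressed, the true fold can be larger. CD11b was gated on, high in KO and low in WT as the protocol is read here, so the parts of gate and genotype in this difference cannot be told apart.

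The common chain and the other partners did not follow Itgam. Itgb2, which encodes the shared β2 chain, read 10.54 on both KO arrays, against 10.64 and 10.66 in WT. The difference was -0.11 ± 0.09 (SE; 95% interval -0.34 to 0.12; adjusted p = 0.539). Itgal encodes αL, which with β2 forms LFA-1, a receptor for ICAM-1 and ICAM-2. It read 9.58 and 9.75 in KO, against 9.52 and 9.63 in WT, with overlapping groups and a 95% interval of -0.17 to 0.36. Itgax, which encodes αX (CD11c), read 10.58 and 10.6 in KO, against 10.37 and 10.33 in WT. The KO arrays lay above the WT arrays by 0.24 ± 0.09 (SE; adjusted p = 0.168), and CD11c was gated as high in both groups. The highest value of any probe set was 12.11, and whether signal near the top of the scale understates differences in Itgax and Itgb2 was not tested.

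Itgad encodes αD, the β2 partner found on some tissue macrophages. It read 3.29 and 3.42 in KO, against 5.57 and 4.20 in WT. Both KO arrays lay below both WT arrays, and the WT arrays were farther from each other than the KO arrays. The difference was -1.53 ± 0.40 (SE; 95% interval -2.50 to -0.55; adjusted p = 0.0565), just short of the threshold. It was -2.21 without WT replicate 2 (adjusted p = 2.63e-04) and -0.84 without WT replicate 1 (adjusted p = 0.0146), and both of these fits rest on a single WT array, so they ignore how far the WT arrays lay from each other. With an intensity trend in limma the adjusted p was 0.0226.

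All 4 alpha partners of β2 lie on mouse chromosome 7. In the RefSeq annotation of GRCm38.p6, Itgam, Itgax and Itgad follow each other with 0 protein-coding genes between them, and 35 such genes separate Itgal from Itgam. The differences of these adjacent genes were 5.76 for Itgam, 0.24 for Itgax and -1.53 for Itgad. The promoters of Itgam and Itgax, neighbours with unlike differences, are shown from 250 bases before to 50 bases after the start site, both on the plus strand, at chr7:128062390-128062689 and chr7:128129300-128129599 (RefSeq, GRCm38.p6). They were searched on both strands for AGGTCA, a nuclear receptor motif. Its direct repeat with 1 base between (DR1, the type of site bound by PPARγ with RXR) was searched for too. So was GAGGAA, one form of the site of the myeloid factor PU.1, and other forms of that site were not searched for. Capitals mark GAGGAA or its reverse complement.
Itgam: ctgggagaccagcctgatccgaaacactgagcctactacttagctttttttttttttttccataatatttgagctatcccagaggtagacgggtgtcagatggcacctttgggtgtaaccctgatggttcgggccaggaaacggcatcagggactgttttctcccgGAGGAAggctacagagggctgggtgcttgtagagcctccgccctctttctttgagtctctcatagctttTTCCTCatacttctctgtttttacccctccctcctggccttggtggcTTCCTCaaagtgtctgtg
Itgax: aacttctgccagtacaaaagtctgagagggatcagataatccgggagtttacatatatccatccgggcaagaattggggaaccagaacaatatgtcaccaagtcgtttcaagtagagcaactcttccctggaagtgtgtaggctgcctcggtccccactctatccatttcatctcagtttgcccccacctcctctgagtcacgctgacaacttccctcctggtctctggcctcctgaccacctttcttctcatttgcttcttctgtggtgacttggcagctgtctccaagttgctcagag
The Itgam window held GAGGAA 3 times, once on the plus strand and 2 times on the other, and the Itgax window 0 times. Neither window held AGGTCA or its DR1 repeat. The promoter table held 25 windows of 23 of the 35 genes. GAGGAA was in 10 of these 25 (40%), against 28.3% of all 32851 windows. AGGTCA was in 0 of the 25, against 16.3% of all windows, and the DR1 repeat in 0, against 0.0396%. The letters of a window do not show whether a factor binds there.

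**Figure D2:**
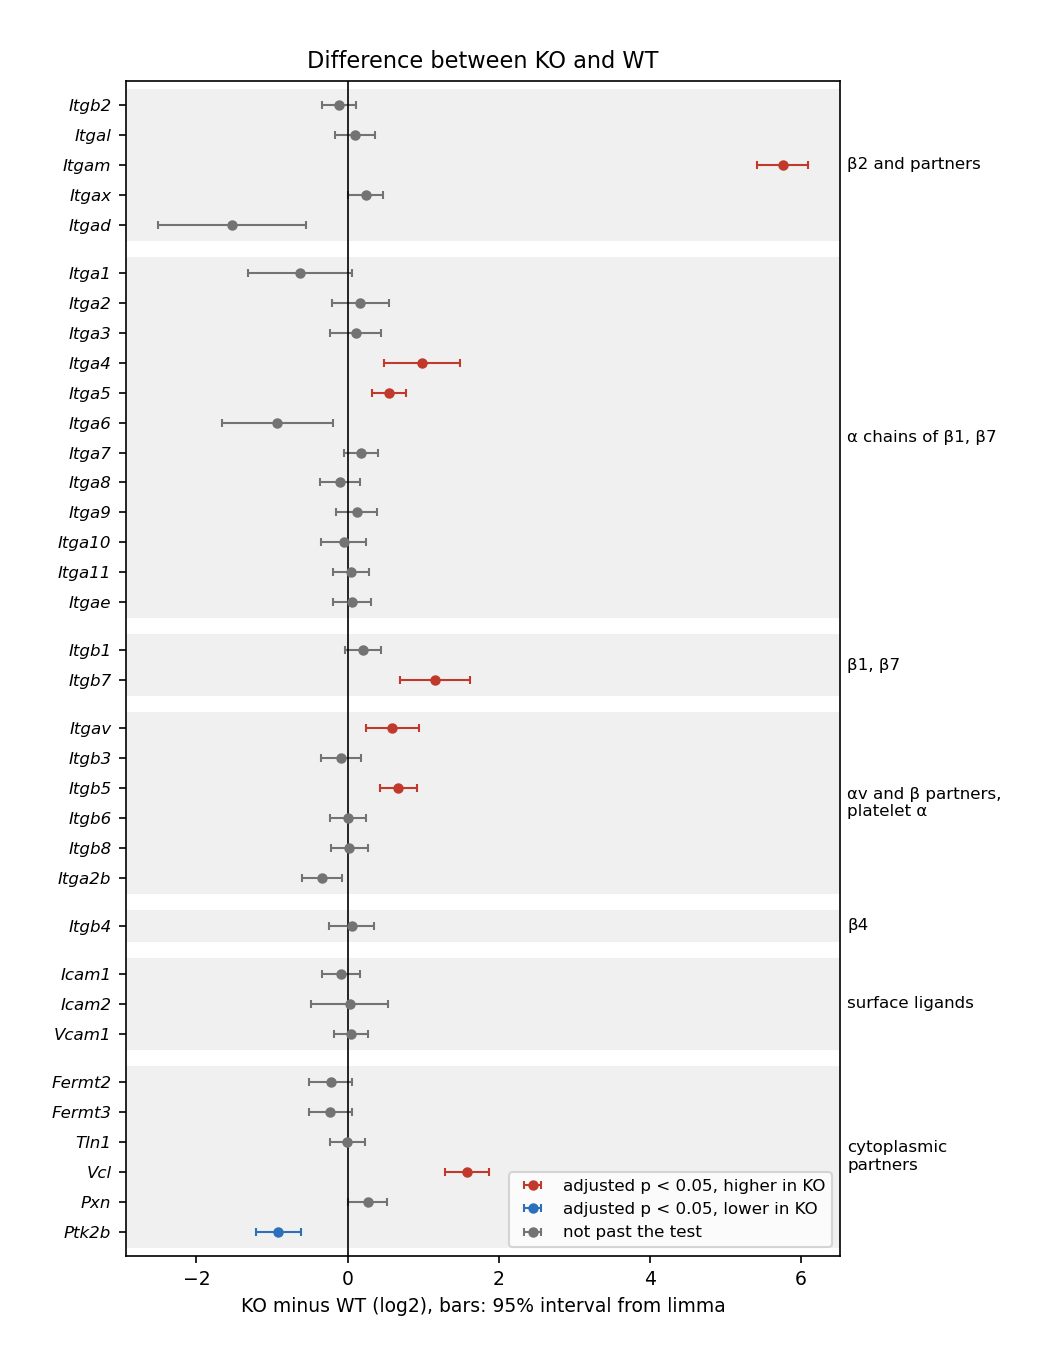
KO minus WT on the log2 scale for each of the 35 genes, grouped by role, with the limma 95% interval of each gene as a bar and colour for the call. Itgam stands at 5.76, Vcl at 1.58 and Ptk2b at -0.915, and most other intervals include 0.

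Among the receptors for extracellular matrix and VCAM-1, the α4, α5 and β7 chains were higher in KO. Itga4 encodes α4, which pairs with β1 to bind VCAM-1 and fibronectin and with β7 to bind MAdCAM-1. It read 9.16 and 9.47 in KO, against 8.04 and 8.61 in WT. The groups did not overlap, and the difference was 0.99 ± 0.21 (SE; adjusted p = 0.0255), a 1.99-fold higher value. The call was lost when KO replicate 1 (adjusted p = 0.0753), KO replicate 2 (0.149) or WT replicate 1 (0.0567) was left out.

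Itgb7 encodes β7, the partner of α4 and of αE. It read 4.73 and 4.49 in KO, against 3.19 and 3.72 in WT, where it lay just above the array median. The difference was 1.16 ± 0.19 (SE; adjusted p = 0.0110), a 2.23-fold higher value, with an adjusted p of 0.0840 without KO replicate 1. Its other partner, Itgae (αE, CD103), read 2.28 to 2.42 in KO and 2.27 to 2.31 in WT, below the array median on all 4 arrays, with a 95% interval of -0.19 to 0.31. Lymphocytes carry both β7 integrins. Their marker Cd3e read 3.08 and 3.20 in KO, against 3.025 and 2.91 in WT. Cd3d read 1.925 and 2.124 in KO, against 1.725 and 1.871 in WT. Of the 5 lymphocyte markers, these 2 had both KO arrays above both WT arrays and 1 had them below. Groups without overlap were seen for 55.3% of all genes. By limma 0 of the 5 lymphocyte markers passed the test, and 0 had an unadjusted p under 0.05. The part of lymphocytes in the Itgb7 result was not tested.

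Itga5 encodes α5, which with β1 is the classical fibronectin receptor. It read 8.38 and 8.37 in KO, against 7.82 on both WT arrays. The arrays of each group were almost level, and the difference was 0.55 ± 0.09 (SE; adjusted p = 0.0121), a 1.47-fold higher value. The moderated error of the fit is larger than the spread of these arrays, and the call was lost when KO replicate 1 (adjusted p = 0.0724), KO replicate 2 (0.0681) or WT replicate 1 (0.0519) was left out. Itgb1, the shared β1 chain, read 9.14 and 9.25 in KO, against 8.97 and 8.995 in WT. The KO arrays lay above the WT arrays, and the difference of 0.21 ± 0.10 (SE; 95% interval -0.03 to 0.45) had an adjusted p of 0.252.

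The laminin receptor chain α6 and the collagen receptor chain α1 read lower on the KO arrays, without passing the test. Itga6 read 4.71 and 4.39 in KO, against 5.96 and 5.00 in WT, a difference of -0.93 ± 0.30 (SE; adjusted p = 0.105). Itga1 read 3.93 and 3.55 in KO, against 4.80 and 3.95 in WT, a difference of -0.63 ± 0.28 (SE; adjusted p = 0.225). As with Itgad, WT replicate 1 lay above WT replicate 2 for both. Without WT replicate 2 the differences were -1.41 for Itga6 (adjusted p = 0.00399) and -1.06 for Itga1 (adjusted p = 0.0160), and without WT replicate 1 they were -0.45 and -0.20 (adjusted p = 0.198 for Itga6 and 0.619 for Itga1). Some other genes also differed between the WT arrays. The alveolar macrophage gene Marco read 3.04 and 3.37 in KO, against 7.22 and 4.43 in WT, and Fabp4 read 4.19 and 4.45 in KO, against 7.57 and 5.21 in WT. Scgb1a1, a marker of airway epithelium, read 6.48 and 6.63 in KO, against 6.89 and 4.26 in WT. Of the other epithelial markers, Sftpc, Sftpb and Cdh1 also read higher on WT replicate 1 than on WT replicate 2, while Epcam and Krt8 read lower. Epcam passed the test, at 1.88 and 2.29 in KO against 6.29 and 6.62 in WT. The part of the differences between the WT pools in the results for Itgad, Itga6 and Itga1 was not tested.

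The other 7 alpha chains that join β1 (Itga2, Itga3, Itga7, Itga8, Itga9, Itga10 and Itga11) lay below the array median on all 4 arrays. Together with Itgae their values ran from 1.97 to 2.82 and their differences from -0.10 to 0.18. At this level a fall could not be seen. The 95% intervals of these 8 genes lay between -0.36 and 0.55. Itgb4, the laminin receptor chain of epithelia that joins α6 only, read 2.92 and 3.06 in KO, against 2.81 and 3.06 in WT.

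Of the αv family, the αv chain and its β5 partner were higher in KO. Itgb5 encodes β5, which with αv binds vitronectin and takes part in the uptake of apoptotic cells. It read 9.62 and 9.67 in KO, against 8.91 and 9.03 in WT. The groups did not overlap, and the difference was 0.67 ± 0.10 (SE; adjusted p = 0.00773), a 1.59-fold higher value, with an adjusted p of 0.0566 without KO replicate 2. Itgav encodes the αv chain itself. It read 7.07 and 7.32 in KO, against 6.76 and 6.46 in WT, a difference of 0.59 ± 0.14 (SE; adjusted p = 0.0450). This call was the closest to the threshold, and it was lost when KO replicate 1 (adjusted p = 0.0875), KO replicate 2 (0.209) or WT replicate 2 (0.145) was left out.

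Apart from Itgb1, described above, the remaining partners of αv were dim. Itgb3, which with αv forms the vitronectin receptor of osteoclasts, read 2.74 and 2.79 in KO, against 2.76 and 2.95 in WT. Itgb6 and Itgb8, whose αv pairs activate latent TGF-β, read 1.91 to 2.17 over both groups, with differences of 0.01 and 0.02. Itga2b, the platelet chain that joins β3, read 3.16 and 2.99 in KO, against 3.36 and 3.47 in WT, a difference of -0.34 ± 0.11 (SE; adjusted p = 0.103). The platelet marker Pf4, which macrophages can also express, went the other way, at 4.50 and 3.97 in KO against 3.52 and 3.31 in WT (adjusted p = 0.0353), while Ppbp read 2.07 and 2.10 in KO against 2.24 and 2.19 in WT.

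None of the 3 ligand genes passed the limma test, and 0 had an unadjusted p under 0.05. Icam1, the ligand of LFA-1 and Mac-1 that inflammatory signals induce, read 7.29 and 7.16 in KO, against 7.35 and 7.27 in WT. Its groups overlapped, and the 95% interval of the difference was -0.33 to 0.17. Icam2, a second ligand of LFA-1, read 3.22 and 3.87 in KO, against 3.47 and 3.57 in WT, with the widest interval of the 3 (-0.48 to 0.54). Vcam1, the ligand of α4β1, read 2.27 and 2.29 in KO, against 2.21 and 2.27 in WT, below the array median on all 4 arrays, with an adjusted p of 0.827.

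Inside the cell, vinculin and Pyk2 changed in opposite directions, while Tln1, Fermt2 and Fermt3, whose proteins bind the beta tail, did not pass the test. Vcl encodes vinculin, which links talin to actin in adhesions under load. It read 5.46 and 5.23 in KO, against 3.71 and 3.82 in WT. The arrays of the groups were more than 1 log2 unit apart, and the difference was 1.58 ± 0.12 (SE; 95% interval 1.29 to 1.87; adjusted p = 6.34e-04), a 2.99-fold higher value. Vcl passed the test with each array left out, with a largest adjusted p of 0.00738.

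Ptk2b encodes Pyk2, the relative of focal adhesion kinase that is prominent in macrophages. It read 7.89 and 8.09 in KO, against 8.99 and 8.82 in WT. Both KO arrays lay below both WT arrays, and the difference was -0.915 ± 0.12 (SE; 95% interval -1.21 to -0.62; adjusted p = 0.00475), a value 1.89-fold higher in WT. It also passed with each array left out, with a largest adjusted p of 0.0388.

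Tln1 encodes talin 1, which binds the beta tail and activates the receptor. It read 8.53 and 8.57 in KO, against 8.54 and 8.56 in WT, a difference of -0.004 with a 95% interval of -0.23 to 0.22. Fermt3, the kindlin of blood cells, read 7.77 and 8.01 in KO, against 8.07 and 8.15 in WT. The KO arrays lay below the WT arrays by 0.23 (difference -0.23 ± 0.12, SE; adjusted p = 0.294). Pxn, which encodes the scaffold paxillin, read 8.58 and 8.69 in KO, against 8.31 and 8.43 in WT, a difference of 0.27 ± 0.10 (SE; adjusted p = 0.172). Fermt2, which encodes another kindlin, read 2.62 to 2.80 in KO and 2.85 to 3.02 in WT, below the array median throughout.

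**Figure D3:**
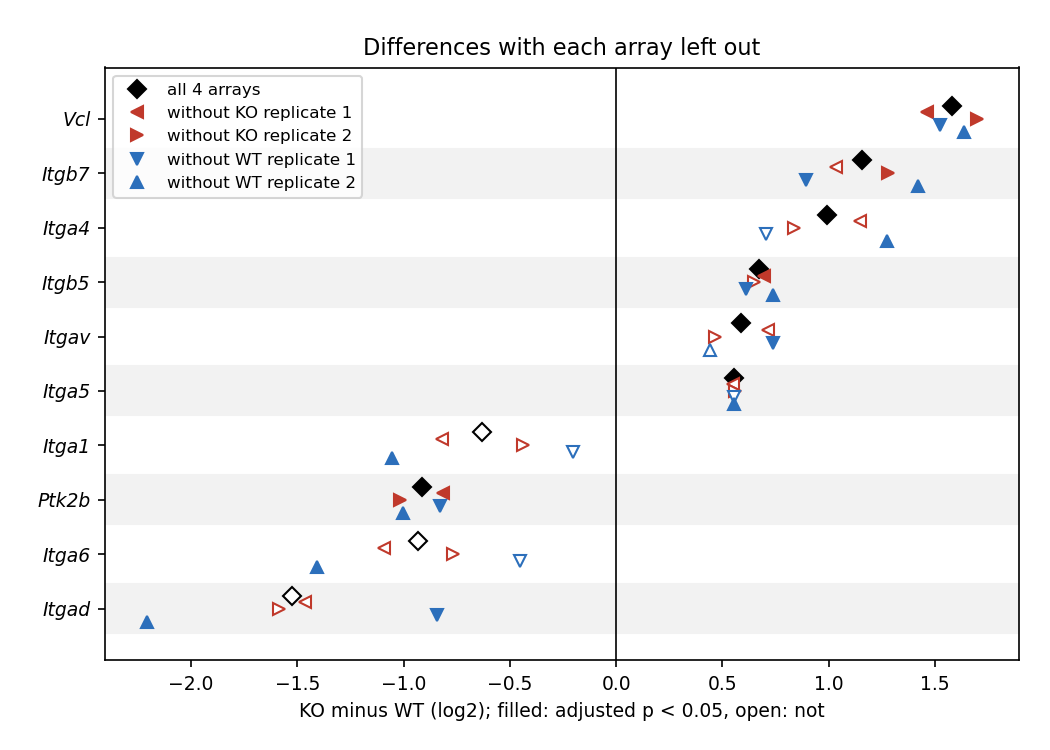
KO minus WT on the log2 scale for the called genes other than Itgam and for Itga1, Itga6 and Itgad, from all 4 arrays (black) and with each KO array (red) or WT array (blue) left out; filled symbols have a limma adjusted p under 0.05 and open ones do not. Vcl and Ptk2b are filled throughout, and Itgad spreads from -2.21 to -0.84 between the fits without one or the other WT array.

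In all, 3 of the 8 called genes (Itgam, Vcl and Ptk2b) passed with each array left out, and the other 5 lost the call with at least 1 array left out. All 8 kept their direction in each of these fits. Without the gated genes Itgam and Itgax, 6 of 33 genes were higher and 1 was lower, 21.2% called, against 14.3% of all genes. Of the 33, 18 lay above the median gene level. Of these 18, 38.9% were called, against 25% of all genes above that level.

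Other genes of integrin adhesion were read in 3 lists. Of 23 measured genes of integrin activation and adaptor function, 5 were higher in KO, 1 was lower and 17 did not pass the test. The median difference was -0.03, and 26.1% were called, against 14.3% of all genes and 25% of those above the median gene level, where 20 of the 23 lay. Fyb, the adaptor ADAP of the inside-out pathway in leukocytes, read 6.60 and 6.53 in KO, against 2.64 and 2.79 in WT, a difference of 3.85 ± 0.10 (SE; adjusted p = 1.73e-05). As for Itgam, both WT arrays lay below the array median, where values are compressed, so the true difference can be larger. Tns3, a tensin of maturing adhesions, was higher by 2.91 ± 0.15 (SE; adjusted p = 1.55e-04). Tln2, the second talin, read 5.66 and 5.76 in KO, against 2.94 and 3.50 in WT, a difference of 2.49 ± 0.19 (SE; adjusted p = 6.35e-04), while Tln1 did not pass. Fblim1, which encodes a filamin-binding partner of kindlin (1.23 ± 0.11), and Parvb, a parvin of the complex with integrin-linked kinase (1.16 ± 0.11), were the others that rose. Actn1, which encodes the actin crosslinker α-actinin 1, fell by 0.756 ± 0.10 (SE; adjusted p = 0.00479), at 8.68 and 8.71 in KO against 9.51 and 9.39 in WT. These 6 genes passed with each array left out.

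**Figure D4:**
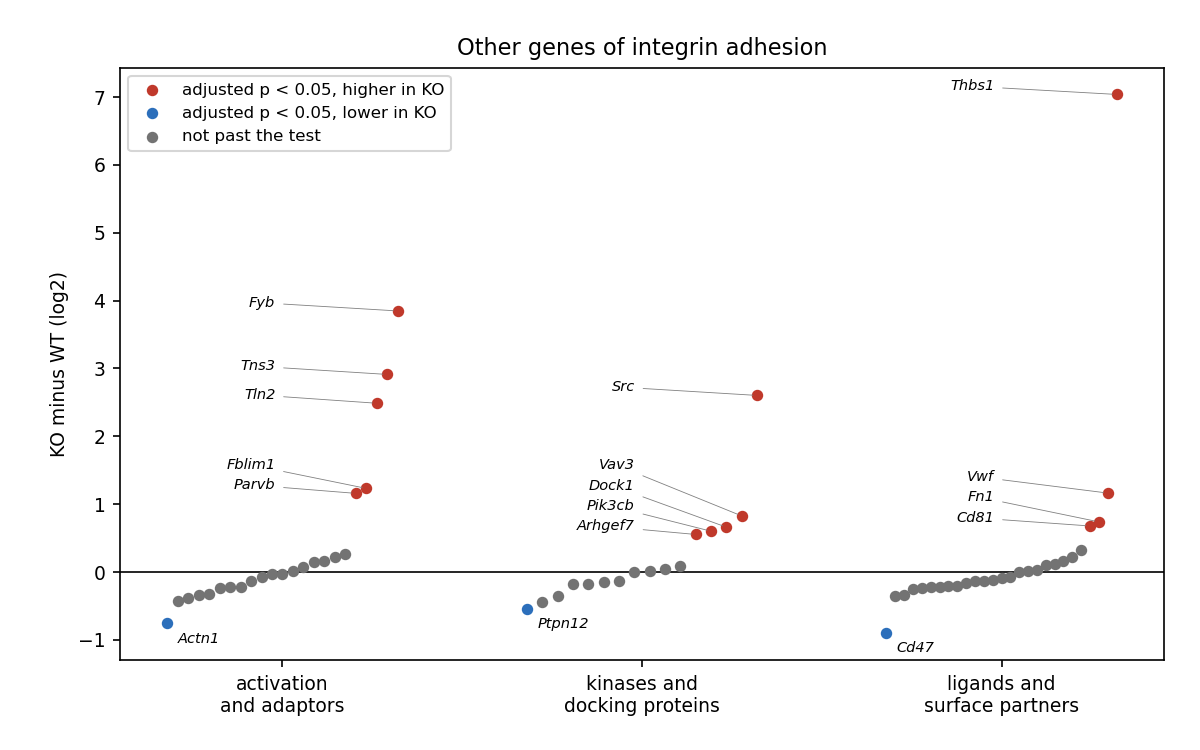
KO minus WT on the log2 scale for 66 other genes of integrin adhesion in 3 lists, each ordered from low to high, with red points for genes higher in KO, blue for lower and grey for those not past the test. The called genes are named, with Thbs1 at 7.04 and Fyb at 3.85 at the upper end and Cd47 lowest at -0.90.

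Of 16 measured kinases and docking proteins downstream of integrins, 5 were higher, 1 was lower and 10 did not pass, 37.5% called, against 14.3% of all genes and 25% of those above the median gene level, where 14 of the 16 lay, with a median of 0.01. Src, the founding kinase of its family, read 6.82 and 6.55 in KO, against 3.35 and 4.82 in WT, a difference of 2.60 ± 0.44 (SE; adjusted p = 0.0118), a call that was lost when KO replicate 1 (adjusted p = 0.0896) or KO replicate 2 (0.0684) was left out. Its size was 1.87 without WT replicate 1 and 3.34 without WT replicate 2. The exchange factor gene Vav3 was higher by 0.83 ± 0.09 (SE; adjusted p = 0.00263), Pik3cb, a catalytic subunit of PI3-kinase, by 0.60 ± 0.10 (SE; adjusted p = 0.0117) and Dock1, a Rac activator, by 0.66 ± 0.12 (SE; adjusted p = 0.0161). The fifth was Arhgef7 (0.55 ± 0.13). Ptpn12, a phosphatase that acts on Pyk2 and on other adhesion proteins, fell by 0.546 ± 0.10 (SE; adjusted p = 0.0168). Of the 6, Vav3 passed with each array left out. Among those that did not pass with all arrays, the myeloid Src-family gene Fgr differed by -0.44 ± 0.11 (SE; adjusted p = 0.0545).

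Of 27 measured ligands and surface partners, 4 were higher, 1 was lower and 22 did not pass, 18.5% called, against 14.3% of all genes, with a median of -0.08. Of the 27, 10 lay above the median gene level. Of these 10, 50% were called, against 25% of all genes above that level. The matrix protein gene Thbs1 read 10.47 and 10.32 in KO, against 2.80 and 3.92 in WT. The difference was 7.04 ± 0.34 (SE; limma adjusted p = 1.23e-04). Its size was 6.48 without WT replicate 1 and 7.60 without WT replicate 2. WT replicate 1 lay below the array median, where values are compressed, so the true difference can be larger. Vwf, which encodes von Willebrand factor, was higher by 1.16 ± 0.10 (SE; adjusted p = 0.00103). It is a marker of endothelium, of whose other markers Cdh5 read 3.86 and 3.37 in KO, against 3.13 and 4.03 in WT, and Pecam1, Kdr, Tek and Cldn5 read 1.95 to 2.90 in KO and 2.00 to 3.28 in WT. Fn1, the ligand of α5β1, read 11.18 and 11.17 in KO, against 10.23 and 10.64 in WT (0.74 ± 0.15, SE; adjusted p = 0.0230), a call lost when KO replicate 1 (adjusted p = 0.119), KO replicate 2 (0.115) or WT replicate 1 (0.0577) was left out. The tetraspanin gene Cd81 was higher by 0.68 ± 0.10 (SE; adjusted p = 0.00833), with an adjusted p of 0.0607 without KO replicate 2. Cd47, which encodes a partner of αvβ3 and the ligand of SIRPα, fell by 0.90 ± 0.10 (SE; adjusted p = 0.00219), at 8.98 and 9.07 in KO against 9.94 and 9.90 in WT. Over the 3 lists, 14 of 66 genes were higher and 3 lower, while 7.41% of all genes were higher and 6.86% lower. Of the 66 genes, 44 lay above the median gene level, where 25% of all genes were called.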

How the data were processed

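RNA of sorted cells was labelled with biotin and hybridised to Affymetrix arrays, per the labels. The deposited values were log2 expression per probe set, made by the authors with RMA. The submitters' processing notes name R 2.15.2. RMA corrects background, gives the arrays 1 distribution and summarises probes, so a shift of most transcripts one way would be lost. The genome build is not given in the sources used here, nor are the RMA settings. Of 28371 probe sets, 21158 had 1 gene symbol in the platform annotation, 1881 had several and 5332 had none listed. Single-gene probe sets gave 18782 genes.

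The comparison of KO with WT used limma 3.58.1 (R 4.3.3, lmFit and eBayes, group as the only term, 2 residual and 4.16 prior degrees of freedom, two-sided) with Benjamini-Hochberg adjustment over all genes and no intensity filter. The number of arrays limits the precision. The SE and the 95% intervals are limma's, the intervals not adjusted for the number of genes. The procedure was tested on simulated data for this comparison with 18782 genes: of genes changed by 0.5, 1 and 2 on the log2 scale it called 25 of 67, 66 of 67 and 66 of 66, and it called 13 of 18582 unchanged genes. Alternatives covered normalization, dim genes, probe set choice, the variance model, the replicate number and each array left out. Each member was named. Of the other pathway lists up to 4 genes with the smallest p in each direction were named, and others that completed a direction were picked once their values were known. The members and lists were chosen with earlier results of these data known.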

Additional observations from a re-analysis of the deposited data

How the results depend on the processing

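Over 13 alternatives, 440 values of single members were recomputed. In 411 the direction and side of the threshold held or no call was involved, 20 lost a call, 9 gained one and 0 of the called differences reversed. Repeated quantile normalization, median centring, averaged probe sets, probe sets of several genes, genes above the median level only and robust limma each called the same 8 members and no others. An intensity trend in limma gave 8 higher and 2 lower members, adding Itgax (adjusted p = 0.00676) and Itgad. With arrays left out in turn, the members gave 3 to 6 higher and 1 to 4 lower, all genes 726 to 1227 higher and 647 to 1057 lower, and the other pathway genes 9 to 14 higher and 2 to 3 lower. The other pathway genes gave 8 lower among genes above the median level and 11 lower with the trend. The ordinary test without moderation has 2 residual degrees of freedom and called 0 members, 0 pathway genes and 0 of all genes in either direction, with 8 members and 3635 genes at an unadjusted p under 0.05, against 13 and 5006 with limma. The replicate numbers are not stated to pair the pools, and the deviations of KO replicate 1 and WT replicate 1 from their group means correlated with r = -0.02 over genes. With a replicate block, 6 members were higher and 4 lower, Itgav having an adjusted p of 0.0725 and Itga1, Itga6 and Itgad of 0.0479, 0.0240 and 0.0419. Apart from the smaller number of genes or arrays in some fits, the cause was not tested. Dim genes limit what can be seen, since 15 of the 35 members lay below the median gene level.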

Other observations

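Some members had probe sets that were not used above. A second Itgb1 probe set read 3.74 and 3.90 in KO, against 3.40 and 3.31 in WT, a difference of 0.47, where the one used gave 0.21. A probe set shared by Cerkl and Itga4 read 3.82 and 4.12 in KO, against 4.27 and 4.33 in WT, a difference of -0.33, opposite in sign to that of the Itga4 probe set (0.99). One shared by B230344G16Rik and Itgb4 read 2.64 and 2.63 in KO, against 2.33 and 2.78 in WT.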
